A study of Mus musculus with 41 samples.

Results

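The Rhox10-ERT2 cells from 4 to 8 h are 4 of the 41 samples of the series and 4 of its 24 iSLAM-seq libraries. They comprise 2 biological replicates at 4 h and 2 at 8 h, chosen by their labels and not by any measured value. iSLAM-seq sequences RNA after the cells have taken up a labelled nucleotide, while a transcription factor is switched on. The cells were mouse germline stem (GS) cells, a culture of spermatogonial stem cells, derived from neonatal (P0-P1) C57BL/6 testes and grown in IMDM/SFM medium. In every one of the 24 libraries, controls included, endogenous Rhox10 had been knocked down with an shRNA lentivirus and the infected cells had been sorted for GFP. The Rhox10-ERT2 cells then carried a lentiviral Rhox10-ERT2-mCherry fusion, which responds to 4-hydroxytamoxifen. The reference was the same step in 4 libraries of cells with the ERT2-mCherry empty vector, again 2 at 4 h and 2 at 8 h. Both vectors were sampled at 0, 0.5, 1, 2, 4 and 8 h with 2 replicates each. The labels do not say which event sets 0 h, whether the empty-vector cells also received 4-hydroxytamoxifen, or whether the lentiviral cultures were clonal.

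RHOX10 is an X-linked homeobox transcription factor of the male germ line, and an ERT2 fusion is held inactive until tamoxifen releases it to the nucleus. Interferon-stimulated genes are the antiviral programme of most cell types. Cytosolic sensors of viral nucleic acid induce interferons, interferon receptors activate a complex that holds STAT2 and IRF9, and this complex binds interferon-stimulated response elements in the promoters of antiviral effectors. Immediate-early genes are transcription factor genes that growth signals switch on within minutes, and they are soon limited by feedback inhibitors. Sterol synthesis genes are controlled as a block by SREBP2, which responds to falling cell sterol.

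The 24 libraries held 9419615 to 12645845 counts. Rhox10 itself, at 46.7 and 42.4 CPM (counts scaled to library size) at 4 h and 43.7 and 36.9 CPM at 8 h, did not pass the test in this step (edgeR adjusted p = 0.916). It ranged from 0.504 to 1.53 CPM in the 4 empty-vector libraries at 4 and 8 h. The 2 empty-vector libraries at 0.5 h stood apart. Their counts differed from each other with a chi-square per degree of freedom of 26.64, against 2.615 to 4.567 in the other 11 pairs. They enter no step described here, but all 24 libraries share 1 estimate of the spread, so the main counts below, and the list counts of this step that moved by more than 1.5 times, are also given without them. In these bulk libraries, fewer cells of a type and less RNA per cell cannot be told apart.

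From 4 to 8 h, 164 genes rose and 307 fell in Rhox10-ERT2 cells, which is 0.794% and 1.49% of the 20642 genes tested (edgeR quasi-likelihood test, Benjamini-Hochberg adjusted p under 0.05). In empty-vector cells 5 genes rose (0.0242%) and 12 fell (0.0581%). The step itself differed between the vectors for 206 genes, 78 of them with the higher step in Rhox10-ERT2 cells (0.378%) and 128 with the lower step (0.62%). Without the empty-vector pair at 0.5 h, 401 genes rose (1.96%) and 814 fell (3.97%) in Rhox10-ERT2 cells, and the step differed for 244 (1.19%) and 476 (2.32%) in the same order. The split between directions moved with the scaling: with library totals in place of TMM factors, 216 genes rose and 221 fell, and the difference of the steps gave 100 and 97. Leaving out 1 of the 4 Rhox10-ERT2 libraries left 195 to 224 genes called in the step. Leaving out any of the 8 libraries at 4 and 8 h left 107 to 127 called in the difference.

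**Figure D1:**
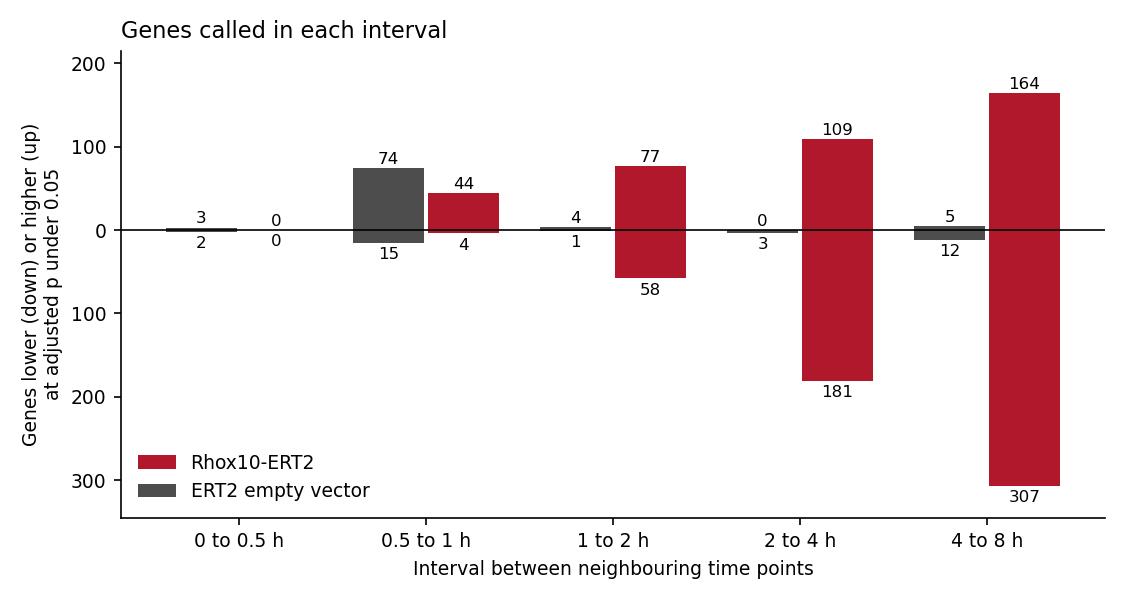
Genes higher (bars up) or lower (bars down) at an edgeR adjusted p under 0.05 in each interval between neighbouring time points (x axis), in Rhox10-ERT2 cells (red) and empty-vector cells (grey), with the number of genes on each bar. In Rhox10-ERT2 cells 164 genes rose and 307 fell from 4 to 8 h, against 109 and 181 from 2 to 4 h. In empty-vector cells the same intervals gave 5 and 12, and 0 and 3.

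The genes called with 1 sign both in the Rhox10-ERT2 step and in the difference between vectors are described below as late rises and late falls. There were 63 late rises (0.305% of genes tested) and 120 late falls (0.581%). Without the empty-vector pair at 0.5 h there were 175 (0.853%) and 398 (1.94%), and all 183 genes were among them. With library totals there were 83 and 90. With 1 of the 8 libraries at 4 and 8 h left out, 97 to 116 genes met both conditions.

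The late rises were led by interferon-stimulated genes. Short promoter windows of 30 bases are shown for 8 genes that rose in Rhox10-ERT2 cells and hold this element, Isg15 and Ifit1 among them although their difference between vectors was not called. Sequences are from RefSeq (GRCm38.p6) and run 5′ to 3′ on the strand of the gene. Capitals mark matches to GAAANNGAAA or to the same letters on the other strand, the core of the interferon-stimulated response element, and overlapping matches run together.
Isg15 (chr4:156200871-156200900, minus strand): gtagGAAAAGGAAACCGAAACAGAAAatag
Ifit1 (chr19:34640784-34640813, plus strand): gTTTCACTTTCcagtctcagTTTCAGTTTC
Ifit3 (chr19:34583397-34583426, plus strand): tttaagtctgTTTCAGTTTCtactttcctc
Ifit3b (chr19:34607793-34607822, plus strand): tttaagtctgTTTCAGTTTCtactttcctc
Gbp7 (chr3:142530273-142530302, plus strand): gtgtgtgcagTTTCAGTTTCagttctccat
Igtp (chr11:58199512-58199541, plus strand): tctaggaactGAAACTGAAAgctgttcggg
Ddx60 (chr8:61928057-61928086, plus strand): ggagcagaagaGAAACCGAAActatccttc
Stat2 (chr10:128270266-128270295, plus strand): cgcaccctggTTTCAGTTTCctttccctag
The Isg15 promoter held 3 overlapping matches, and the Ifit1 promoter held 2, all shown. The promoters of Ifit3, Ifit3b and Ddx60 held 2 matches each, and only the 1 nearest the start site lies in the window shown. The Ifit3 and Ifit3b windows are identical, and reads of these near-identical genes could have been divided between them, so their single values are uncertain.

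Over the promoter table, which covers 250 bases before to 50 bases after each start site, 3.44% of 32851 promoters held a match on either strand. The share was 3.53% of the 12732 tested genes that had an entry. Of the 45 late rises with an entry, 13 (28.9%) held one, and of 88 late falls 4 (4.55%) did. Of 36 interferon-stimulated effectors with an entry, 18 (50%) did. Without the empty-vector pair at 0.5 h, 26 of 128 late rises (20.3%) and 12 of 299 late falls (4.01%) held a match. The AP-1 site, TGANTCA, which FOS and JUN proteins bind, was in 7.81% of all promoters, in 18 of 88 late falls (20.5%) and in 8 of 45 late rises (17.8%). A match describes the letters only, and no binding of an interferon-activated factor was measured.

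Interferon-stimulated effectors, the proteins that carry out the antiviral state, rose as a group in Rhox10-ERT2 cells. Of 48 on the list, all of which were tested, 36 rose from 4 to 8 h and 0 fell, with a median log2 fold change of 1.41. Over all genes tested the median was -0.00495 and 0.794% rose. In empty-vector cells 0 of the 48 passed by edgeR or by DESeq2, with 2 higher and 3 lower at an unadjusted p under 0.05, and their median was 0.094. The step differed between vectors for 19 of the 48, always with the higher step in Rhox10-ERT2 cells, and for 29 without the empty-vector pair at 0.5 h, where 41 rose. Over all genes tested the same shares were 0.378%, 1.19% and 1.96%. From 0 to 4 h, a comparison that uses the same 4 h libraries, 16 of the 48 had risen, with a median of 0.31, against 3.12% of all genes tested. So part of this group had already moved by 4 h.

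Isg15, a ubiquitin-like protein that is attached to other proteins in the antiviral state, was at 260.5 and 253 CPM at 4 h and at 612 and 561 CPM at 8 h in Rhox10-ERT2 cells. In empty-vector cells it was at 119 and 122 CPM and then at 132 and 113 CPM. The 8 h libraries of Rhox10-ERT2 cells lay above every other library of these 4 groups. The step came to 1.19 on the log2 scale, with a standard error of 0.23 (edgeR adjusted p = 0.00342), and without either 4 h library the call was lost (adjusted p = 0.0502 and 0.0607). The difference between vectors, 1.17, did not pass (edgeR adjusted p = 0.113). It passed at the same size without the empty-vector pair at 0.5 h (edgeR adjusted p = 4.18e-13), in which Isg15 was at 112 and 38.6 CPM.

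Ifit1, which binds viral RNA that lacks the host's cap marks, was at 258 and 237 CPM at 4 h and at 504 and 461 CPM at 8 h. The empty-vector libraries were at 51.6 and 62.6 CPM at 4 h and at 72.3 and 67.8 CPM at 8 h. Its step was 0.96 with a standard error of 0.14 (edgeR adjusted p = 0.000163). It had already risen from 2 h, when it was at 119 and 104 CPM, to 4 h. The difference between vectors of 0.67 did not pass with all libraries (edgeR adjusted p = 0.175) and passed without the pair at 0.5 h (adjusted p = 0.000185).

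Ifit3, a partner of Ifit1, was at 33.4 and 32.8 CPM at 2 h, 70.7 and 69.3 CPM at 4 h, and 253 and 235 CPM at 8 h. The empty-vector libraries were at 29.0 and 32.1 CPM at 4 h and 26.5 and 24.8 CPM at 8 h. Its step of 1.80 on the log2 scale had a standard error of 0.10 (edgeR adjusted p = 3.94e-10), and the difference between vectors was 2.05 with a standard error of 0.15. For both Ifit genes the Rhox10-ERT2 and empty-vector libraries did not overlap at either time.

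The guanylate-binding and immunity-related GTPases attack the membranes around intracellular pathogens. Iigp1 went from 25.0 and 28.3 CPM to 118 and 117 CPM, a step of 2.13 (standard error 0.15) on the log2 scale. Igtp went from 25.0 and 22.4 CPM to 84.3 and 89.2 CPM. Ifi47 went from 5.41 and 7.24 CPM to 24.8 and 25.0 CPM. Gbp7 went from 17.3 and 27.3 CPM to 96.5 and 102 CPM. In empty-vector cells these 4 genes stayed at or below 17.7 CPM in every library at 4 and 8 h. The genes of these families share sequence with close copies, so values of single copies are uncertain.

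Usp18, the protease that removes Isg15 and restrains interferon receptor signalling, went from 25.4 and 25.8 CPM to 108 and 115 CPM. Uba7, the enzyme that activates Isg15 for attachment, went from 5.59 and 7.99 CPM to 23.5 and 25.7 CPM. Cmpk2, a mitochondrial nucleotide kinase, went from 16.3 and 17.9 CPM to 65.6 and 69.5 CPM. Its neighbour Rsad2, which makes a chain-terminating nucleotide, went from 128 and 126 CPM to 250.4 and 233 CPM. Rnf213, a large ubiquitin ligase, went from 33.8 and 31.1 CPM to 119 and 123 CPM. All 5 rose in Rhox10-ERT2 cells with log2 fold changes from 0.93 to 2.12. The difference between vectors passed for Usp18, Uba7, Cmpk2 and Rnf213, and was 0.76 for Rsad2 (edgeR adjusted p = 0.0587). Of the 12 largest late rises, 9 kept both calls in all 8 fits without 1 library. The others, Gbp7, Trim30a and Cmpk2, lost the difference between vectors in 1 or more of them.

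**Figure D2:**
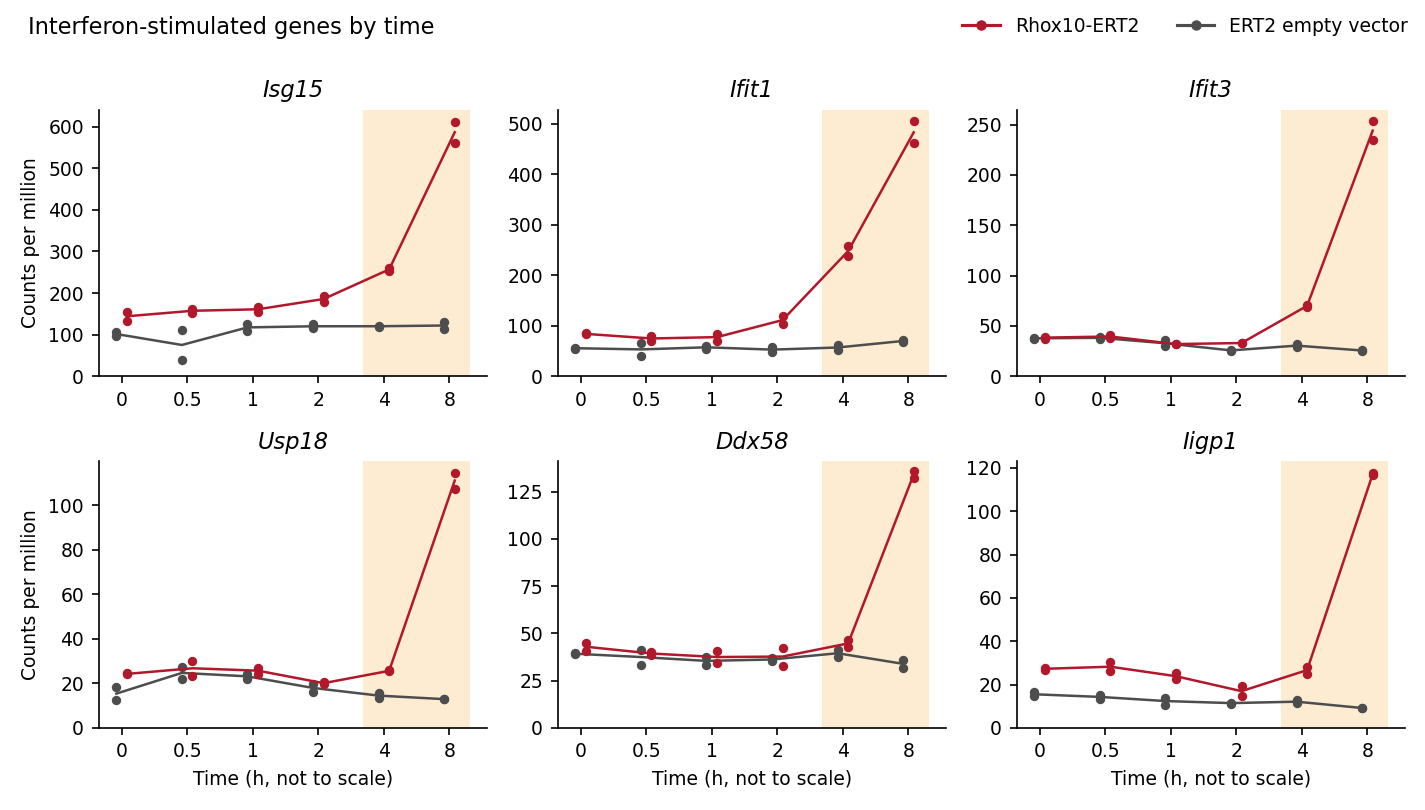
Expression in CPM (y axis, linear, from 0) of 6 interferon-stimulated genes at the 6 time points (x axis, evenly spaced and not to scale), with 1 point per library and lines through the means of 2 libraries, in Rhox10-ERT2 cells (red) and empty-vector cells (grey). The shaded interval is 4 to 8 h. Isg15, Ifit1 and Ifit3 are above their 2 h level at 4 h, whereas Usp18 and Ddx58 are at 25.4 and 25.8 CPM and at 43.0 and 46.4 CPM at 4 h and reach 108 and 115 CPM and 136 and 132 CPM at 8 h.

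Nucleic acid sensors detect foreign RNA or DNA in the cytosol. Of 23 on the list 17 passed the filter on low counts and 8 of those rose from 4 to 8 h (0 fell), with a median of 0.774. Over all genes tested 0.794% rose, and 0.378% had the higher step in Rhox10-ERT2 cells. The step differed from that of empty-vector cells for 4, namely Ddx58, Ifi204, Adar and Eif2ak2. That of Ifi204 was lost without any 1 of the 8 libraries and that of Eif2ak2 in 3 of those 8 fits. The step differed for 6 without the pair at 0.5 h, where 11 rose. In that fit 1.96% of all genes rose and 1.19% had the higher step. Ddx58, which encodes the RNA sensor RIG-I, went from 43.0 and 46.4 CPM to 136 and 132 CPM, a step of 1.59 on the log2 scale with a standard error of 0.13 (edgeR adjusted p = 4.19e-08). Its empty-vector libraries went from 41.3 and 37.7 CPM to 31.9 and 35.8 CPM. Adar, which edits double-stranded RNA, went from 13.8 and 11.2 CPM to 42.3 and 43.0 CPM. Eif2ak2, the double-stranded RNA kinase PKR, went from 28.3 and 21.8 CPM to 62.8 and 61.5 CPM. Ifih1, the sensor MDA5, followed another course. It was at 20.8 and 17.2 CPM at 0 h, 80.5 and 66.7 CPM at 4 h, and 110 and 109 CPM at 8 h. Its step of 0.57 passed (edgeR adjusted p = 0.0239) but was lost without any 1 of the 4 Rhox10-ERT2 libraries.

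Among IRF and STAT factors, the transcription factors of the pathway, 15 of 16 were tested. Of these 4 rose, among them Stat2, Irf9 and Irf7, and the step differed between vectors for the same 4. Over all genes tested 0.794% rose and 0.378% had the higher step in Rhox10-ERT2 cells. Stat2 went from 31.9 and 28.9 CPM to 68.0 and 72.4 CPM, a step of 1.21 with a standard error of 0.15 (edgeR adjusted p = 1.64e-05). Irf9 went from 64.0 and 64.8 CPM to 120.0 and 130 CPM. Irf7, which amplifies interferon production, went from 22.9 and 27.9 CPM to 47.6 and 55.8 CPM, a call that was lost without Rhox10 4 h replicate 1. The list's median was 0.152, as the other 11 tested factors did not pass.

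Most interferon genes on the list were hardly counted. Ifnb1 had 5 counts in all 24 libraries together, with 2 and 0 at 4 h and 0 and 1 at 8 h in Rhox10-ERT2 cells. Ifna2, Ifna4, Ifnl2 and Ifnl3 had 0. A change in these genes was not detectable at this depth. Ifnk, an interferon of epithelia, had 142 counts in all, with 5 and 4 at 4 h and 8 and 7 at 8 h in Rhox10-ERT2 cells, and did not pass. Of 19 interferon and receptor genes 12 were tested and 0 passed in the step by edgeR or DESeq2, with a median of -0.0451. At an unadjusted p under 0.05 1 was lower, and 1 fell without the pair at 0.5 h. Of 17 genes of MHC class I presentation, which displays peptides to T cells, 3 rose, against 0.794% of all genes tested. These were the peptide transporter Tap1, from 12.3 and 11.6 CPM to 37.5 and 30.9 CPM, the proteasome subunit Psmb10 and the loading factor Tapbp. The Tapbp call was lost without any 1 of the 4 Rhox10-ERT2 libraries, and that of Psmb10 without replicate 1 at either time. The step differed between vectors for Tap1 alone among the 17, and for 3 genes without the pair at 0.5 h. The higher step was called for 0.378% of all genes tested, or 1.19% without that pair.

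**Figure D3:**
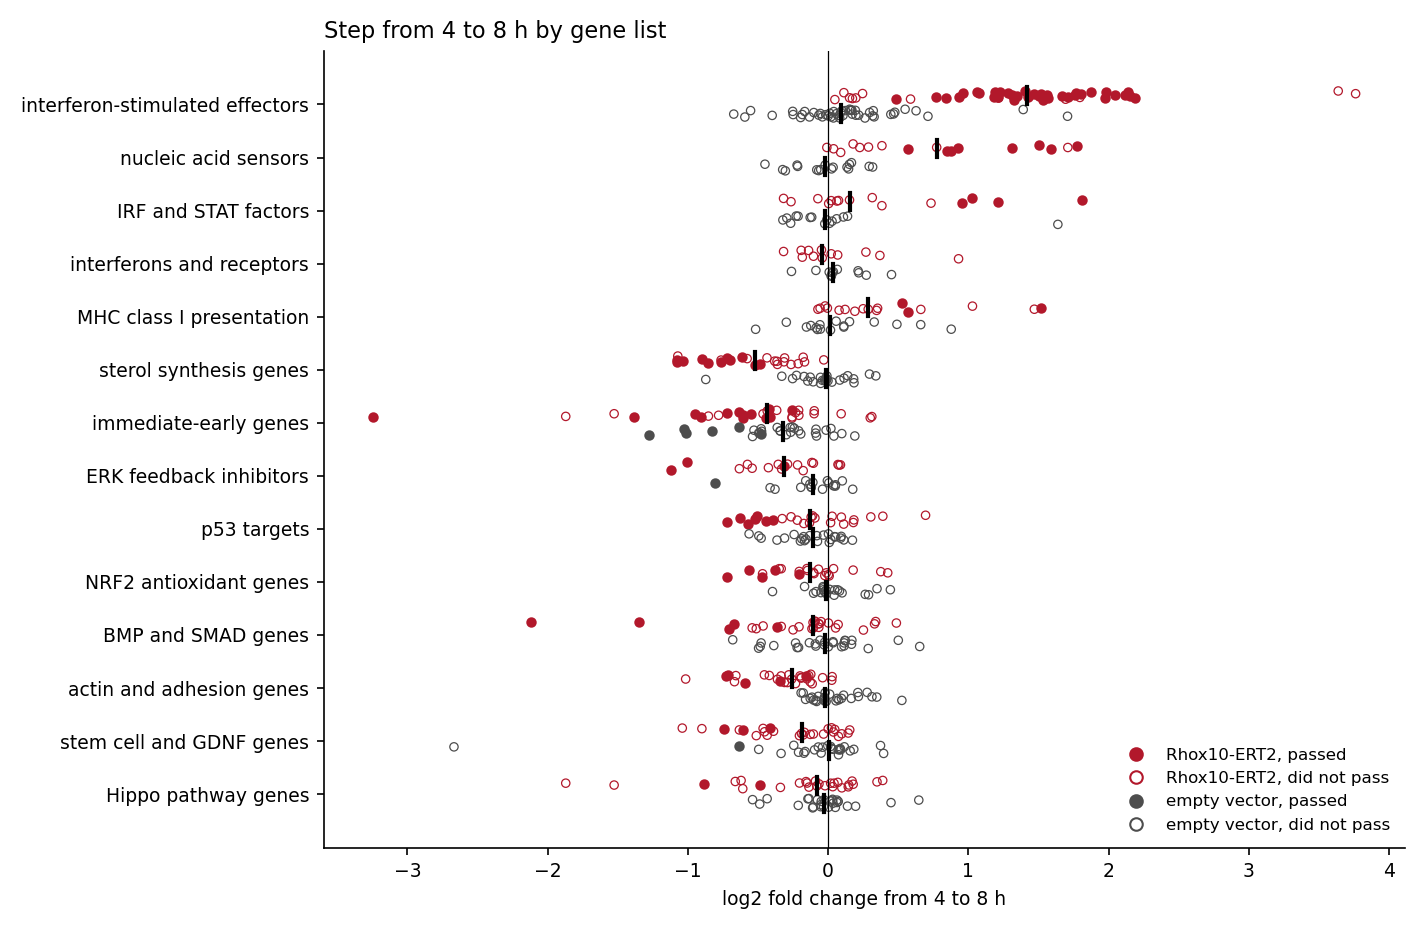
log2 fold change from 4 to 8 h (x axis) of every tested gene of 14 lists (rows), in Rhox10-ERT2 cells (red) and empty-vector cells (grey). Each point is a gene, filled where it passed at an edgeR adjusted p under 0.05, and black bars are list medians. Interferon-stimulated effectors have medians of 1.41 and 0.094 in Rhox10-ERT2 and empty-vector cells, and sterol synthesis genes -0.518 and -0.0168.

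A narrower set passed in the last interval and in no earlier one. A gene counted here if it was a late rise or late fall, if its change from 4 to 8 h differed from its change from 0 to 4 h, and if it passed in none of the earlier Rhox10-ERT2 steps nor from 0 to 4 h. This left 21 rises (0.102% of genes tested) and 23 falls (0.111%). The change from 0 to 2 h was no part of the definition, and 5 of the 44 had passed in it, Nipal1, Spry2, Zyx and Mt2 as higher at 2 h and Adar as lower. In the fit without the pair at 0.5 h, 13 of 64 falls (20.3%) had risen and 5 of 42 rises had fallen from 0 to 2 h. The rises included Stat2, Irf7, Ddx58, Adar, Eif2ak2, Ifi204, Mndal, Ifi44, Gbp7, Trim30a, Usp18, Uba7, Parp9, Parp10, Dtx3l, Slfn2, Tap1, Tent5a, Fyco1 and Gm11636. Of these 21, 14 were on the interferon, sensor, factor or presentation lists, as were 95 of the 20642 genes tested. Parp9 and its partner Dtx3l, an ADP-ribosyltransferase and a ubiquitin ligase, went from 25.6 and 23.2 CPM to 75.3 and 66.1 CPM and from 28.1 and 25.8 CPM to 67.2 and 75.7 CPM. Ifit3 was not in the set because it had passed from 0 to 4 h. Isg15 and Ifit1 had passed then too, and they were not late rises, since their difference between vectors was not called.

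Of the falls of the last interval only, Zyx, Spry2, Txnrd1 and Gdnf were on a list. The 23 were Lmna, Zyx, Lpp, Ahnak, Rhob, Tubb6, Tppp3, Map7d1, Sh3pxd2b, Ppp1r18, Plpp3, Nipal1, P2ry2, Txnrd1, Mt2, Spry2, Gdnf, Tcim, Zswim6, Cdca4, Zhx2, Mgea5 and Gm20219. Lmna encodes nuclear lamins A and C, Zyx and Lpp are proteins of focal adhesions, and Rhob is a small GTPase of the actin and endosome systems. Rhob was at 210.1 and 199.7 CPM at 4 h and 123 and 117 CPM at 8 h, and in empty-vector cells at 112 and 114 CPM and then 128 and 116 CPM. Mt2, a metal-binding metallothionein, went from 1213 and 1193 CPM to 856 and 823 CPM. Gdnf, the growth factor on which spermatogonial stem cells depend, was at 12.7 and 11.8 CPM at 4 h and 3.63 and 5.03 CPM at 8 h.

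Membership of this set depended on the spread, since it asks that earlier steps did not pass. Without the empty-vector pair at 0.5 h there were 42 rises (0.205%) and 64 falls (0.312%). Of the 44 genes, 17 of the 21 rises and 7 of the 23 falls were still in it. Tap1, Tent5a and Fyco1 were among the rises that left, and Map7d1, Mt2 and Spry2 were among the falls that left. Leaving out 1 of the 8 libraries at 4 and 8 h gave 18 to 27 genes in all, and with library totals there were 24 rises and 17 falls. Both calls of the last interval held in all 8 such fits for 10 of the 21 rises (among them Adar, Ddx58, Dtx3l, Mndal, Parp9, Stat2, Tap1, Uba7 and Usp18) and for 5 of the 23 falls (Map7d1, Mt2, Rhob, Spry2 and Txnrd1).

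Most late falls followed an earlier rise. Of the 120, 70 (58.3%) had risen from 0 to 2 h in Rhox10-ERT2 cells, a comparison that shares no library with the last interval. Over all genes tested 2.07% rose and 1.14% fell from 0 to 2 h, and among genes with a mean of at least 5 CPM 3.11% rose. Of the 63 late rises 2 had risen and 10 had fallen in that time. In 67 of the 120 late falls the highest mean over the 6 times was at 4 h and in 39 it was at 2 h. In 76 the 8 h mean lay below that of 0 h. The 4 and 8 h libraries also chose these genes, so such counts lean towards a high 4 h and a low 8 h mean. The empty-vector cells had a rise from 0 to 2 h in 40 of the same 120 genes and a fall in 2. Among all 20642 genes tested, 225 rose and 73 fell in empty-vector cells in that time. So the early rise of these genes was over-represented in empty-vector cells too. Without the pair at 0.5 h, 194 of 398 late falls (48.7%) had risen from 0 to 2 h in Rhox10-ERT2 cells, against 5.08% of all genes.

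**Figure D4:**
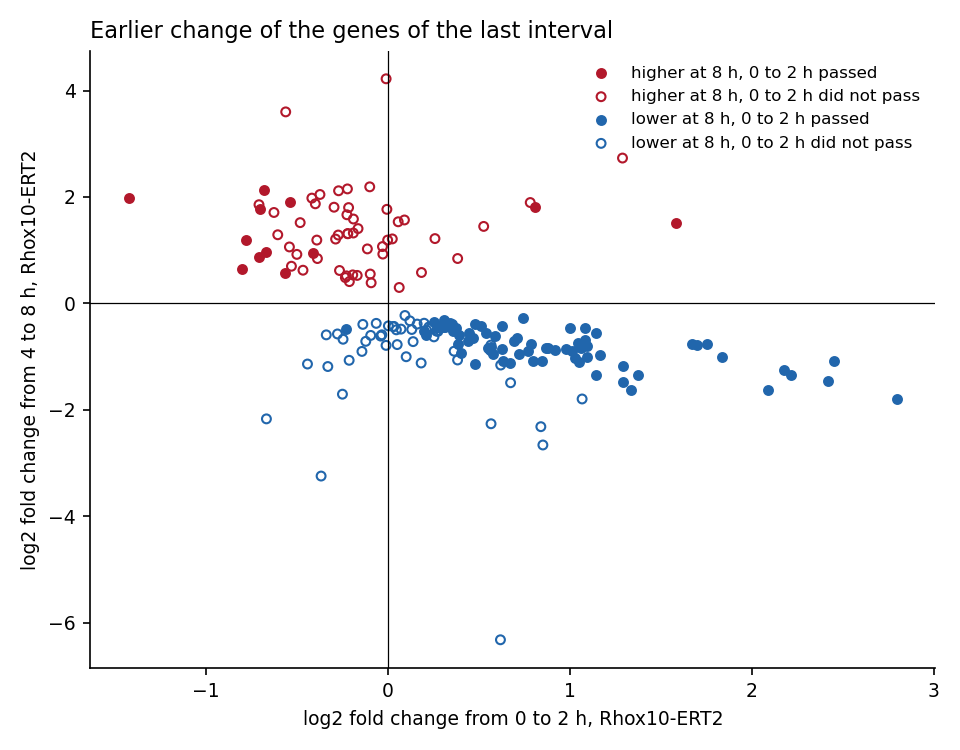
log2 fold change from 0 to 2 h (x axis) and from 4 to 8 h (y axis) in Rhox10-ERT2 cells for the 63 late rises (red) and 120 late falls (blue), 1 point per gene, filled where the change from 0 to 2 h passed at an edgeR adjusted p under 0.05. The y values chose the genes, and the x values come from other libraries. Filled blue points lie to the right of 0 for 70 genes and to the left for 1.

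Inhba, the subunit of activin A, had the highest mean level at 4 h of the 70 late falls that had risen from 0 to 2 h. In Rhox10-ERT2 cells it was at 138 and 148 CPM at 0 h, 797 and 737 CPM at 2 h, 1584 and 1407 CPM at 4 h, and 554 and 537 CPM at 8 h. In empty-vector cells it was at 353 and 332 CPM at 4 h and at 519 and 450 CPM at 8 h, where it rose. The vectors lay closer at 8 h than at 4 h and overlapped at neither. The step was -1.46 with a standard error of 0.09 (edgeR adjusted p = 1.2e-09), and the difference between vectors was -1.96.

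Flrt3, an adhesion protein of FGF signalling, was at 15.9 and 20.2 CPM at 0 h, 123 and 127 CPM at 2 h, 83.9 and 87.9 CPM at 4 h, and 27.0 and 22.4 CPM at 8 h. Jag1, a Notch ligand, was at 24.5 and 22.1 CPM at 0 h, 100.3 and 98.5 CPM at 2 h, 89.1 and 73.2 CPM at 4 h, and 28.4 and 24.4 CPM at 8 h. In empty-vector cells Jag1 was at 64.0 and 60.3 CPM at 4 h and at 78.2 and 72.0 CPM at 8 h. Ndrg1, a gene of stress and hypoxia, went from 142 and 144 CPM to 50.9 and 51.8 CPM. Il11, a cytokine of the interleukin-6 family, went from 172 and 161 CPM to 69.7 and 70.2 CPM. Jag1 and Ndrg1 ended below their empty-vector libraries at 8 h, and Inhba and Il11 ended above.

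Nr4a3 and Cavin2 passed as a rise in none of the earlier steps. Nr4a3, an orphan nuclear receptor of the immediate-early class, was at 31.9 and 30.7 CPM at 0 h, 14.1 and 17.4 CPM at 4 h, and 1.76 and 1.55 CPM at 8 h. The empty-vector libraries were at 7.36 and 7.60 CPM at 4 h and at 4.67 and 9.46 CPM at 8 h. Its step of -3.25 had a standard error of 0.28 (edgeR adjusted p = 8.62e-08). Cavin2, a coat protein of caveolae, went from 6.74 and 5.13 CPM to 2.18 and 0.484 CPM. Rasgrf1, an activator of RAS and RAC, moved in opposite directions in the 2 vectors after a rise from 2 to 4 h in Rhox10-ERT2 cells. It fell from 14.4 and 12.7 CPM to 3.422 and 4.837 CPM in Rhox10-ERT2 cells, and rose from 5.75 and 4.93 CPM to 18.3 and 19.4 CPM in empty-vector cells. Of the 12 largest late falls 9 kept both calls in all 8 fits without 1 library, and the others were Gdnf, Nipal1 and Tnfaip6.

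**Figure D5:**
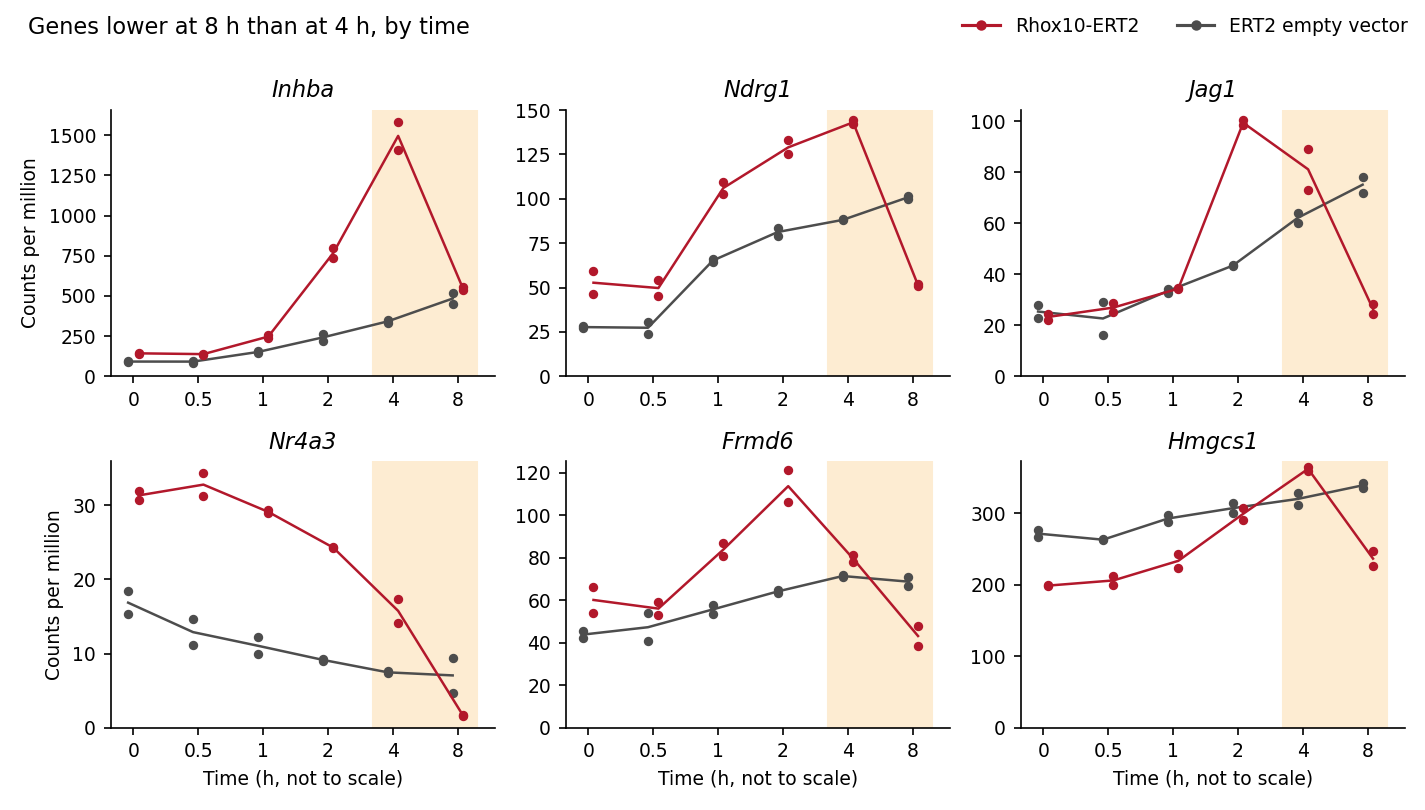
Expression in CPM (y axis, linear, from 0) of 6 genes that fell from 4 to 8 h, at the 6 time points (x axis, evenly spaced and not to scale), with 1 point per library and lines through the means of 2 libraries, in Rhox10-ERT2 cells (red) and empty-vector cells (grey). The shaded interval is 4 to 8 h. Inhba, Ndrg1, Jag1, Frmd6 and Hmgcs1 climb before they drop, and Nr4a3 declines to 1.76 and 1.55 CPM at 8 h.

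Sterol synthesis genes fell together. Of 25, all tested, 11 fell and 0 rose, with a median of -0.518, and all 25 had a negative log2 fold change. Over all genes tested 1.49% fell. In empty-vector cells 0 passed by edgeR or DESeq2, 1 was lower at an unadjusted p under 0.05, and the median was -0.0168. The step differed between vectors for 7, and for 10 without the pair at 0.5 h, where 14 fell. Over all genes tested the same shares, for lower steps and falls, were 0.62%, 2.32% and 3.97%. From 0 to 4 h, with the same 4 h libraries, 12 of the 25 had risen, with a median of 0.464, against 3.12% of all genes tested. Hmgcs1 makes a precursor of cholesterol, and Msmo1 acts late in the pathway. Hmgcs1 was at 200 and 198 CPM at 0 h, 365 and 360 CPM at 4 h and 226 and 248 CPM at 8 h. Msmo1 went from 154 and 157 CPM to 74.9 and 72.3 CPM, and Insig1, which holds SREBP2 back, from 46.8 and 50.1 CPM to 23.9 and 23.5 CPM. In the empty-vector libraries Hmgcs1 was at 312 and 329 CPM at 4 h and at 336 and 342 CPM at 8 h, so it ended higher there than in Rhox10-ERT2 cells. Without Rhox10 8 h replicate 2 the list's count fell to 7.

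The Hmgcs1 promoter is shown because it alone, of 15 sterol genes with an entry, held TCACNCCAC, a form of the sterol regulatory element, on either strand (capitals). The same letters occurred in 1.24% of all promoters.
Hmgcs1 (chr13:119690203-119690232, plus strand): acgtcaccgtcTCACCCCACttcccaggtc
The authors' CUT&Tag peak table places a RHOX10 peak over this start site, at chr13:119689914-119690503, whose centre is annotated 143 bases before it. Among tested genes with a mean of at least 5 CPM, 29.4% had a peak within 3 kb.

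Immediate-early genes fell in both vectors. Of 33, 30 were tested. In Rhox10-ERT2 cells 13 fell and 0 rose, with a median of -0.438, and in empty-vector cells 6 fell, with a median of -0.319. Over all genes tested 1.49% fell in Rhox10-ERT2 cells and 0.0581% in empty-vector cells. The count in Rhox10-ERT2 cells was 8 with library totals, 19 (with 2 rises) without the pair at 0.5 h and 6 to 12 with 1 of the 8 libraries left out. The step differed between vectors for 3 in each direction, or for 4 higher and 7 lower without the pair at 0.5 h. Klf6 went from 119 and 131 CPM to 67.3 and 66.4 CPM, and Nr4a2 from 108 and 110 CPM to 65.3 and 67.1 CPM. Fos, Egr1 and Jun had the higher step in Rhox10-ERT2 cells. Fos was at 16.9 and 17 CPM at 4 h and 15.3 and 16.2 CPM at 8 h there, and at 50.1 and 47.8 CPM and then 20.7 and 19.7 CPM in empty-vector cells, where it fell. From 0 to 4 h, with the same 4 h libraries, 20 of the 30 fell in Rhox10-ERT2 cells, with a median of -1.05, against 3.11% of all genes tested.

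Of 17 tested ERK feedback inhibitors, which damp growth factor signalling, Dusp5, Spry2 and Phlda1 fell, and 8 fell without the pair at 0.5 h. For this and the next lists, 1.49% of all genes tested fell and 0.794% rose, or 3.97% and 1.96% without that pair. The lower step in Rhox10-ERT2 cells was called for 0.62% of all genes, or 2.32% without the pair. Spry2 went from 129 and 116 CPM to 58.6 and 53.8 CPM and Dusp5 from 118 and 113 CPM to 53.3 and 61.0 CPM, and the step of both differed from that of empty-vector cells. Of 22 NRF2 antioxidant genes 5 fell and 0 rose. Txnrd1, a thioredoxin reductase, went from 324 and 327 CPM to 205 and 190 CPM, Srxn1, a sulfiredoxin, from 959 and 906 CPM to 679 and 669 CPM, and Fth1, the ferritin heavy chain, from 3089 and 3155 CPM to 2357 and 2455 CPM. Of 24 p53 targets 7 fell, among them Mdm2 and Trp53inp1, and the step differed between vectors for 0 by edgeR (1 higher and 5 lower at an unadjusted p under 0.05), for 1 by DESeq2 and for 4 by edgeR without the pair at 0.5 h. Of 25 ATF4 and ER stress genes 3 fell, and 8 without that pair. Of 16 heat shock genes, 14 tested estrogen receptor targets and 7 tested Rhox cluster genes 0 passed by edgeR or DESeq2. At an unadjusted p under 0.05 the heat shock genes had 2 higher and 1 lower, the estrogen receptor targets 2 lower and the Rhox cluster 0. Without the pair at 0.5 h, 3 heat shock genes rose and 1 fell, 3 estrogen receptor targets fell, and the Rhox cluster stayed at 0.

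Frmd6, a FERM-domain regulator upstream of the Hippo kinases, rose early and then fell. In Rhox10-ERT2 cells it was at 54.1 and 66.2 CPM at 0 h, 106 and 121 CPM at 2 h, 81.3 and 77.9 CPM at 4 h, and 48 and 38.4 CPM at 8 h. Empty-vector libraries were at 71.0 and 71.8 CPM at 4 h and 71.1 and 66.5 CPM at 8 h. The step was -0.88 with a standard error of 0.13 (edgeR adjusted p = 0.000221). The difference between vectors was -0.83 with a standard error of 0.19 (edgeR adjusted p = 0.0249), which passed in 1 of the 8 fits without 1 library. Because it had also fallen from 2 to 4 h, it was not in the set of the last interval only. A RHOX10 peak lies at chr12:70824866-70825488 on its promoter, and 29.4% of tested genes with a mean of at least 5 CPM had a peak within 3 kb. Of 27 tested Hippo pathway genes 2 fell, Frmd6 and Ajuba, and 5 without the pair at 0.5 h. Over all genes tested 1.49% fell, or 3.97% without that pair. Ajuba's call was lost without any 1 of the 8 libraries and with library totals.

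Few germ-cell genes passed. Over all genes tested 1.49% fell and 0.794% rose in the step, or 3.97% and 1.96% without the pair at 0.5 h. The lower step in Rhox10-ERT2 cells was called for 0.62% of all genes and the higher step for 0.378%, or 2.32% and 1.19% without that pair. Of 26 tested stem cell and GDNF genes Nanos3, Bcl6b and Egr3 fell (5 genes without the pair at 0.5 h) and 0 rose, and the step differed between vectors for Nanos3 alone, or for 4 genes without the pair at 0.5 h. Nanos3, an RNA-binding protein of early germ cells, was at 16.1 and 14.5 CPM at 0 h, 39.2 and 37.3 CPM at 4 h and 22.7 and 22.9 CPM at 8 h. Empty-vector libraries were at 41.2 and 37.2 CPM at 4 h and 49.8 and 51.7 CPM at 8 h. Its step was not called without any 1 of the 4 Rhox10-ERT2 libraries, nor its difference between vectors without any of the 8. Bcl6b lost its call without any of the 8 and with library totals. Of 22 differentiation and retinoic acid genes 0 fell (2 without the pair at 0.5 h, 3 lower at an unadjusted p under 0.05 and 0 by DESeq2) and 1 rose, Cyp26b1, which degrades retinoic acid and kept its call in 6 of the 8 fits without 1 library. It went from 29.5 and 38 CPM to 60.6 and 67.3 CPM and had been at 68.0 and 73.1 CPM at 0 h. Of 27 BMP and SMAD genes 5 fell, including Bmp2, from 421 and 424 CPM to 260 and 257 CPM. Of 29 actin and adhesion genes 5 fell, which became 14 without the pair at 0.5 h. Of 35 cell cycle and replication genes 1 fell, Cdt1, which licenses replication origins, and 6 did without that pair. Of 28 glycolysis and hypoxia genes Ndrg1 and Vegfa fell, and 5 did without that pair. Vegfa lost its call in 4 of the 8 fits without 1 library. Of 19 tested NF-kB targets 0 passed in the step by edgeR (3 higher and 2 lower at an unadjusted p under 0.05, 1 lower by DESeq2, 2 higher and 1 lower without the pair at 0.5 h), and the higher step in Rhox10-ERT2 cells was called for 3, among them Nfkbia, which lost that call in 7 of the 8 fits without 1 library.

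RHOX10 peaks of the CUT&Tag experiment, which maps the DNA near a protein that an antibody binds, give a separate readout of the same genes. A peak within 3 kb of the start site was annotated to 42 of 120 late falls (35.0%) and to 14 of 63 late rises (22.2%). Among all genes tested the share was 19.8%, and among those with a mean of at least 5 CPM it was 29.4%. Of the 120 late falls 117 had such a mean, as had 59 of the 63 late rises, so the higher share is the closer reference for both. Jag1, Ndrg1, Hmgcs1 and Frmd6 were among the late falls with such a peak, and Fyco1, Ddx60, Adar and Ddx58 among the late rises with one. Without the empty-vector pair at 0.5 h the shares were 31.7% of late falls and 22.3% of late rises.

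RNA-seq of sorted germ cells labelled Rhox10-null or wild-type, with 4 libraries each and the testes of 3 animals pooled in each, measured 37 of the late rises and 104 of the late falls. In libraries labelled null, 18.6% of the 13538 genes tested there were higher and 18.9% lower. Of the late rises 10 were higher and 3 lower, and of the late falls 29 were higher and 18 lower (edgeR adjusted p under 0.05). Of the 48 interferon-stimulated effectors only 14 were tested there, of which 0 were higher and 1 lower. These directions depended on the scaling, since library totals gave 7229 genes higher and 629 lower and moved the all-gene median from 0.00306 to 0.35 on the log2 scale.

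Markers of other cells were read beside these changes. The germline markers Ddx4 and Dazl were present throughout, at 85.9 to 141 and 787 to 1450 CPM over the 24 libraries. Fibroblast genes were abundant too, with Col1a1 at 421 to 861 CPM and Fn1 at 581 to 1070 CPM. The summed level of the 16 fibroblast markers went from 3619 and 3537 CPM to 3166 and 3116 CPM in Rhox10-ERT2 cells, and from 2911 and 2948 CPM to 2914 and 2811 CPM in empty-vector cells, and 0 of the 16 passed in the step by edgeR or DESeq2. At an unadjusted p under 0.05 7 of them were lower in Rhox10-ERT2 cells, and 5 fell without the pair at 0.5 h. The 16 germline markers went from 3176 and 3126 CPM to 3002 and 2938 CPM in Rhox10-ERT2 cells. In empty-vector cells they went from 3792 and 3770 CPM to 3711 and 3616 CPM. In Rhox10-ERT2 cells 1 of the 16 fell, or 4 without that pair. Over all genes tested 1.49% fell there, or 3.97% without that pair. The summed level of the 12 Sertoli cell markers went from 446 and 448 CPM to 312 and 343 CPM in Rhox10-ERT2 cells. In empty-vector cells it went from 480 and 477 CPM to 510 and 480 CPM. Sox9 alone had a mean of 331 CPM at 4 h in Rhox10-ERT2 cells. Sox9 and Gdnf fell there, and 2 of the 8 tested markers had a positive log2 fold change. Amh was at 0 in all 24 libraries, and Gata4 and Fshr reached at most 1.01 and 0.346 CPM. The part of fibroblasts and Sertoli cells in the late rises and late falls was not tested. The macrophage genes Ptprc, Adgre1 and Tyrobp reached at most 1.22, 0.424 and 0.518 CPM in any library, and Csf1r and Cx3cr1 at most 2.25 and 1.18 CPM. The summed level of 12 macrophage and endothelial markers was 53.7 and 46.9 CPM at 4 h and 44.1 and 48 CPM at 8 h in Rhox10-ERT2 cells. Other members of the list made up most of that sum. The part of such cells in the late rises was not tested. Of the 7 Leydig cell markers 3 were tested and 0 passed, and Hsd3b1, Insl3 and Lhcgr were at 0 in all 24 libraries.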

How the data were processed

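The iSLAM-seq and RNA-seq tables that the authors deposited hold whole-number read counts for each gene and library, as their headers show. No header states if converted reads were counted apart from the rest. For iSLAM-seq, limma 3.42.2 and the mm10 build are named in the submitters' processing notes. The aligner, counter and strand setting are not given in the sources used here, so antisense partners cannot be told apart, and the libraries came from a 3′ end kit per the labels. The authors deposited a table of merged RHOX10 peaks with a score and a distance to the nearest start site for each, per the file headers. The tables held 0 further per-sample columns.

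The quasi-likelihood test of edgeR 4.0.16 under R 4.3.3 was run on the deposited counts, with TMM factors. Genes were kept by filterByExpr, and p-values were adjusted by Benjamini-Hochberg over all genes kept, with a threshold of 0.05. The 24 iSLAM-seq libraries were fitted with 12 group means. Contrasts were the step from 4 to 8 h in each vector, the difference of the steps, and the Rhox10-ERT2 change from 4 to 8 h minus that from 0 to 4 h. RNA-seq was fitted with genotype alone. The iSLAM-seq p-values rest on the spread within the 12 groups, estimated jointly over all 24 libraries with information shared across genes. The empty-vector pair at 0.5 h therefore enters the spread used for every step. The labels call the 2 libraries of each group biological replicates. CPM values used TMM-scaled library sizes, and fold changes are relative to that scaling. The fits were tested on simulated counts.

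The genes, gene lists and tests were chosen with earlier results of these data known. Genes were named by a rule: Rhox10, Isg15, Ifit1 and Frmd6, the 12 largest rises and 12 largest falls among late rises and falls whose mean reached 5 CPM (no predicted symbols), and up to 4 genes of each list by smallest p. Genes of the last interval only are named too, and Insig1, Ifih1, Rsad2, Il11, Fos, Egr1, Jun and Nfkbia were added after their values were seen. Some genes that the rule names are not reported here. Promoters were taken from RefSeq, GRCm38.p6, which covers 250 bases before to 50 after the start. Same-numbered libraries were checked for pairing by correlating their deviations from group means. Over 66 pairs of groups the mean correlation was 0.0102, so no pairing was seen. All genes tested entered, with a median of 9.48 CPM, so counting noise could hide a weak pairing. The settings tried were library totals, DESeq2 1.42.0, DESeq2 size factors in edgeR, no filter, fewer libraries, a replicate block and a fold-change minimum. Each of the 8 libraries at 4 and 8 h and each RNA-seq library was also left out in turn.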

Additional observations from a re-analysis of the deposited data

Results flagged for a closer look

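The step from 4 to 8 h differed between Rhox10-ERT2 and empty-vector cells, by the tested difference of the steps, for 78 genes with the higher step in Rhox10-ERT2 cells and for 128 with the lower step (edgeR, Benjamini-Hochberg adjusted p under 0.05). Among the genes named for their size, the log2 difference was 2.65 for Ifi47, 2.64 for Trim30a, 2.53 for Iigp1, 2.28 for Usp18, 2.23 for Cmpk2 and 2.18 for Ifit3b. It was 2.11 for Uba7, 2.06 for Rnf213, 1.99 for Gbp7, 1.97 for Igtp and 1.58 for Ddx60. Among falls it was -3.52 for Rasgrf1, -3.16 for Nr4a3, -2.39 for Cavin2, -1.96 for Inhba, -1.94 for Gprc5a and -1.93 for Tnfaip6. It was -1.90 for Jag1, -1.79 for Flrt3, -1.67 for Ndrg1, -1.64 for Gdnf, -1.54 for Nipal1 and -0.83 for Frmd6. Rasgrf1 passed in both vectors with opposite signs.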

How the results depend on the processing

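The number of genes called depended on which libraries set the spread and on a fold-change minimum. Without the empty-vector pair at 0.5 h, 1215 genes were called in the Rhox10-ERT2 step, 84 in the empty-vector step, 720 in the difference of the steps, 1618 in the late against the early change, 573 as late rises or falls and 106 in the last interval only. With only the 8 libraries at 4 and 8 h the first 3 and the late rises or falls gave 1484, 125, 898 and 697. With a log2 fold change of at least 1 the 6 counts were 142, 5, 104, 417, 78 and 26. The empty-vector step gave 26 genes with DESeq2 and 33 with no filter on low counts. Leaving out 1 of the 8 libraries gave 195 to 410, 4 to 15, 107 to 127, 217 to 613, 97 to 116 and 18 to 27 genes for the 6 counts. RNA-seq gave 2980 genes with DESeq2 and 7858 with library totals, against 5071. With the replicate block the 6 counts were 478, 17, 213, 682, 189 and 43. The block ended the call of the difference for Fyco1, Nipal1 and Tppp3 and added one for Hmox1 among the genes refitted. The sign of an uncalled difference of the steps reversed for Btg2 without replicate 1 of Rhox10-ERT2 (-0.03458) or empty-vector cells (-0.08491) at 4 h, and for Egr3 without the same libraries (-0.003563 and -0.04777) or empty-vector replicate 1 at 8 h (-0.03433). The highest values without 1 library were 0.1426 and 0.09576. No step of a gene refitted under these alternatives reversed. Apart from the effect of fewer libraries or genes, the cause of these shifts was not tested. With 2 libraries a group, small changes were not detectable.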
